A study of Mus musculus with 20 samples.

Results

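The replication-dependent histone genes of mouse bone marrow neutrophils are described here. The members were all genes whose symbol in the count files starts with Hist1h, Hist2h, Hist3h or Hist4h, which gave 68 of the 24421 genes listed. They comprised 6 genes for the linker histone H1, 18 for H2A, 19 for H2B, 12 for H3 and 13 for H4, and 1 of the 68 (Hist3h2bb-ps) was annotated as a processed pseudogene. The histone types were read from the same symbols that chose the members. They thus do not test whether a member is canonical or replication-dependent. The label also says nothing of the form of RNA that was captured.

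Neutrophils were taken from the marrow of femur and tibia by magnetic negative selection, in 4 groups of 5 female mice that were 8 to 10 weeks old at the start. The groups were WT and Bmal1Mye-/-, each either untreated or given imiquimod (IMQ, an agonist of Toll-like receptor 7) as a 5% cream on both ears 3 times per week for 6 weeks. Bmal1Mye-/- mice carry floxed Bmal1, listed in the files as Arntl, and a Cre recombinase at Lyz2, so that deletion is directed to myeloid cells as a whole and not to neutrophils alone. WT mice were purchased C57BL/6J animals without the Cre, whereas the Bmal1Mye-/- mice were bred by crossing, so that genotype and origin cannot be told apart. Bmal1Mye-/- is labelled KO in the plots. Each library came from 1 mouse, and poly(A) RNA was selected before sequencing.

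Core histones H2A, H2B, H3 and H4 form the nucleosome around which DNA is wrapped, and H1 binds the DNA between nucleosomes. Replication-dependent histone genes are transcribed when cells copy their DNA, and their mRNAs are known for ending in a conserved stem-loop, bound by the stem-loop binding protein SLBP, in place of a poly(A) tail. A minority of these genes also yields polyadenylated RNA, in particular in cells that have left the cell cycle. In the marrow, early neutrophil precursors divide whereas later stages do not. The values below are thus levels of polyadenylated or otherwise captured histone RNA, and the unpolyadenylated pool was not measured.

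The 3' ends of the annotated gene models were searched for the stem-loop as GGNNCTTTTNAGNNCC on the transcript strand. It was found in 44 of the 68 models (GENCODE M21, GRCm38, the build also called mm10), in 6 forms, of which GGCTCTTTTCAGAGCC was the most frequent with 26 models. Shown are the stem-loops, in capitals with 7 bases on either side, of 4 members whose levels the results turn on. The annotated end of each of these 4 models lies past this element.
Hist1h1c: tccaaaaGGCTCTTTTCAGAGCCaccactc
Hist1h2be: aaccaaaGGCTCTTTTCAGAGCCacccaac
Hist1h2bg: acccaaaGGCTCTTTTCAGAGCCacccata
Hist1h4i: acttaaaGGCCCTTTTTAGGGCCaccacaa

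The annotated model ended 840 bases after the stem-loop in Hist1h1c, 1861 bases after it in Hist1h2be, 155 bases after it in Hist1h2bg and 330 bases after it in Hist1h4i. In all, 22 models ended 100 or more bases past the stem-loop, 22 ended closer to it, and 24 held no match. Among the 24, models such as those of Hist1h1b, Hist1h2ai, Hist1h2ak, Hist1h2an, Hist1h2bl and Hist1h4k have 0 bases after the stop codon. A stem-loop after the stop codon could not be found in these, so no match does not mean that a gene lacks the element. AATAAA, the canonical signal for polyadenylation, lay in the last 50 bases of 15 models, among them Hist1h1c, Hist1h2be, Hist2h2be and Hist3h2a. The Hist1h2bc model held no match to the stem-loop pattern, which says only that these letters are not in the annotated model.

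The libraries held 30782166 to 92613500 reads assigned to genes, and scaling factors by the trimmed mean of M values (TMM) ran from 0.8545 to 1.379. Levels are given as CPM, that is counts per megaread of the scaled library size. The Cre insertion was visible in Lyz2 (lysozyme M), at 2465 to 12030 CPM in the 10 WT libraries and 58.8 to 177 CPM in the 10 Bmal1Mye-/- libraries. IMQ-treated WT replicate 3 was the WT library at 2465 CPM, and the other 9 were at 7584 CPM or more. Arntl was low in every library and overlapped between genotypes, from 0.562 to 1.87 CPM in WT and from 0.338 to 1.52 CPM in Bmal1Mye-/-. Its log2 difference between genotypes without IMQ was -0.90 ± 0.38 (SE), with an adjusted p of 1, and gene-level counts cannot separate reads inside a deleted exon from reads outside it. The summed level of 9 neutrophil genes (S100a8, S100a9, Csf3r, Cxcr2, Ltf, Camp, Ngp, Lcn2 and Mmp8) was 73600 to 157900 CPM, and none of the 9 was at 0 in any library.

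Few histone genes carried nearly all of the signal. Of the 245977 reads counted on the 68 members over the 20 libraries, 59.6% fell on Hist1h1c, which encodes the linker histone H1.2, and the 3 most counted members took 79%. Only 14 members reached 1000 counts in all, 6 had no count in any library and 3 had 1 to 3 counts. Counts also depend on the share of 50-base stretches (the read length) of a model that are in no other transcript. Of the 6 without a count, that share was 36.5% for Hist2h3c2. It was 2.68% for Hist1h2bq, 3.72% for Hist2h2aa1, 6.93% for Hist1h2ap, 10.2% for Hist1h4m and 11.3% for Hist1h2br. A low count is thus not by itself a low level. In mean CPM over the 20 libraries the order was Hist1h1c (119), Hist1h2bc (24.5), Hist1h4i (13.04), Hist3h2a (6.96), Hist1h2be (5.71), Hist1h1e (4.03), Hist1h2bg (3.06), Hist2h2be (2.15), Hist1h1d (1.83), Hist1h4h (1.03), Hist1h2ac (1.01) and Hist1h4c (0.982). The H3 gene of highest CPM was Hist1h3e, at 0.530 CPM. Levels of different genes can be compared only per length: per kilobase of exon, Hist1h1c had 76.2 CPM, Hist1h2bc 21.2 CPM and Hist1h4i 17.9 CPM. They were followed by Hist1h2bg at 4.94 CPM and Hist3h2a at 3.25 CPM per kilobase. Among the H3 genes Hist1h3c was highest on this scale, at 0.779 CPM per kilobase, above Hist1h3e at 0.633 CPM per kilobase.

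Of the 68 members, 52 passed the filter on low counts and were tested among 14030 genes (5 of H1, 12 of H2A, 14 of H2B, 9 of H3 and 12 of H4). A member can pass this filter through the group in which it is high, so counts over the 52 are a description: 31 of them would also pass with the 10 untreated libraries alone. The 16 members that were not tested had 0 to 159 counts in total. The median share of their 50-base stretches found in no other transcript was 22.8%, against 56% for the tested members.

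Without treatment, the genotypes were close for the abundant members and no member passed the test. Hist1h1c stood at 154.5, 219, 131, 143 and 148 CPM in the 5 untreated WT mice and at 95.7, 100, 195, 243 and 131 CPM in the 5 untreated Bmal1Mye-/- mice. The ranges overlapped, with the lowest and the highest of the 10 values both in Bmal1Mye-/-, and the log2 difference was -0.06 ± 0.24 (SE). Hist1h2bc, an H2B gene, stood at 24.2, 31.5, 33.6, 43.3 and 41.0 CPM in WT and at 32.8, 35.7, 32.5, 42.2 and 29.4 CPM in Bmal1Mye-/-, a difference of -0.01 ± 0.26. Each gene was tested with edgeR (quasi-likelihood F test), and p-values were adjusted over all 14030 genes by the Benjamini-Hochberg method. At an adjusted p under 0.05, 0 of 52 members passed in either direction and 0 were higher, where 0.207% and 0.107% of all genes were, and DESeq2 and limma also called 0. At an unadjusted p under 0.05, 1 of 52 members (Hist1h2bl, an H2B gene) passed, against 2.19% of all genes. Hist1h2bl stood at 0.104, 0.142, 0.196, 0.0910 and 0.0909 CPM in untreated WT and at 0, 0.0863, 0, 0.0187 and 0.0438 CPM in untreated Bmal1Mye-/-. All 5 Bmal1Mye-/- libraries were below the WT ones, but the gene had 184 counts over all 20 libraries, and the log2 difference of -1.82 ± 0.79 had an adjusted p of 1. The median log2 difference of the 52 members was -0.11, beside -0.0039 for all tested genes, and 21 of 52 values were above 0, where 48.7% of all genes were.

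IMQ in Bmal1Mye-/- mice was the comparison in which histone genes moved most. Against untreated Bmal1Mye-/-, 18 of the 52 tested members rose and 3 fell, where 14.4% of all tested genes rose and 9.04% fell. At an unadjusted p under 0.05, 40 of the 52 passed, against 39.3% of all genes. The 3 that fell were Hist1h1c, Hist1h2bc and Hist1h2be, and Hist1h2bg had the highest mean CPM of the 18 that rose. Per kilobase of exon, Hist1h1c (76.2 CPM) and Hist1h2bc (21.2 CPM) were above Hist1h2bg (4.94 CPM). Hist1h2be, at 1.28 CPM per kilobase, was below Hist1h2bg and Hist1h1b (1.32 CPM), which both rose. As these are bulk samples, fewer cells of a type and less RNA per cell cannot be told apart for any of these changes. Because each fold change was fitted to libraries scaled to a common size, it gives a share of the poly(A) RNA and not an amount per cell.

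Hist1h2bc fell in both genotypes. In the 5 IMQ-treated Bmal1Mye-/- mice it stood at 8.01, 16.4, 11.6, 11.3 and 12.9 CPM, all below the 29.4 CPM of the lowest untreated Bmal1Mye-/- mouse. The log2 fold change was -1.52 ± 0.27 (SE, adjusted p = 0.0046). In the 5 IMQ-treated WT mice it stood at 8.17, 11.9, 14.3, 18.4 and 30.2 CPM, of which the last overlapped the untreated WT range. Here the log2 fold change was -1.07 ± 0.26 (adjusted p = 0.0327), and Hist1h2bc was the single member called in WT.

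Hist1h1c stood at 59.7, 87.2, 82.7, 65.2 and 51.7 CPM in IMQ-treated Bmal1Mye-/- mice, below each of the untreated Bmal1Mye-/- values. The fall was -1.14 ± 0.24 on the log2 scale (adjusted p = 0.00686), from a mean of 153 ± 64.0 CPM to 69.3 ± 15.2 CPM (SD, n = 5). In IMQ-treated WT mice it stood at 108, 103, 74.1, 67.7 and 117 CPM, which was also below all 5 untreated WT values. The WT difference of -0.76 ± 0.24 did not pass (adjusted p = 0.0747).

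Hist1h2be, a further H2B gene, stood at 7.73, 7.07, 7.81, 7.67 and 6.14 CPM in untreated Bmal1Mye-/- mice and at 2.54, 3.56, 3.11, 5.53 and 2.36 CPM after IMQ. The groups did not overlap and the log2 fold change was -1.09 ± 0.20 (adjusted p = 0.00525). In WT it went from 6.64, 6.84, 7.95, 7.995 and 7.67 CPM to 4.45, 3.73, 3.69, 5.35 and 6.28 CPM, again without overlap, with a log2 difference of -0.66 ± 0.20 (adjusted p = 0.0687). Exons of the Hist1h2be and Hist1h1e models overlap on the same strand, so reads there cannot be assigned to 1 of these genes with certainty.

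**Figure D1:**
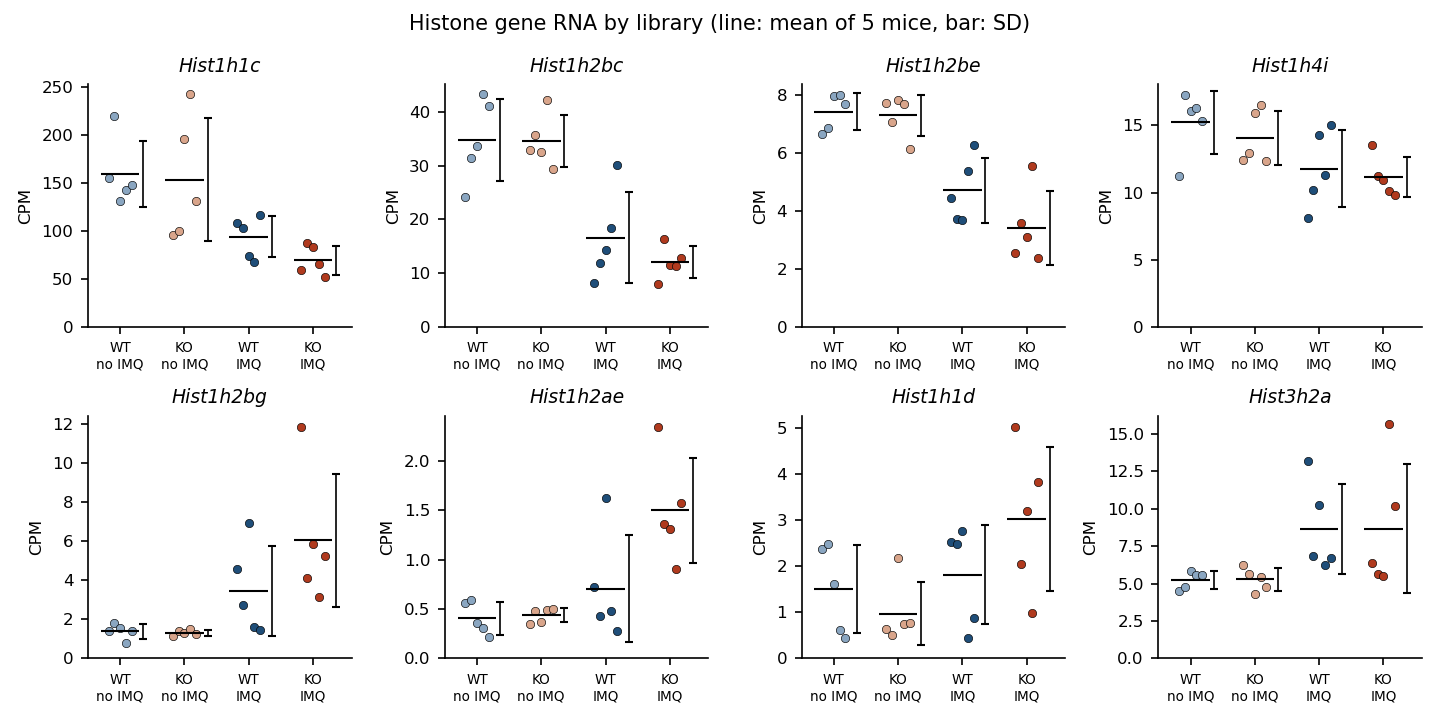
Level in CPM (vertical axes, each from 0) of 8 histone genes in the 5 libraries of each group: WT and Bmal1Mye-/- (KO), without and with IMQ. Each point is 1 mouse, the line is the mean and the bar the SD. Hist1h1c, Hist1h2bc and Hist1h2be are lower in every IMQ-treated KO library than in any untreated KO library, whereas Hist1h2bg and Hist1h2ae are higher in every one.

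These 3 genes are 3 of the 4 on a list of histone genes known to give polyadenylated RNA. The list was chosen with earlier results of these data known, so the match is not independent support. Hist2h2be, the other gene of this list, went the other way without passing the test: it stood at 2.099, 1.64, 1.55, 0.917 and 2.07 CPM in untreated Bmal1Mye-/- mice and at 4.15, 2.07, 2.22, 1.32 and 5.34 CPM after IMQ. The groups overlapped, with a log2 difference of 0.87 ± 0.33 (adjusted p = 0.0639). Hist1h4i, the most abundant H4 gene, stood at 12.4, 12.96, 15.95, 16.5 and 12.4 CPM without IMQ and 13.6, 11.2, 10.9, 10.1 and 9.79 CPM with it in Bmal1Mye-/-. Its log2 difference was -0.33 ± 0.16 in Bmal1Mye-/- (adjusted p = 0.134) and -0.37 ± 0.16 in WT (adjusted p = 0.183).

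Hist1h2bg, the H2B gene of highest level among those that rose, stood at 1.14, 1.38, 1.28, 1.52 and 1.24 CPM in untreated Bmal1Mye-/- mice and at 11.9, 4.12, 5.86, 3.15 and 5.25 CPM after IMQ. The groups did not overlap and the log2 fold change was 2.21 ± 0.41 (adjusted p = 0.00512). In WT it went from 1.41, 1.81, 1.55, 0.774 and 1.38 CPM to 4.60, 2.76, 6.93, 1.62 and 1.45 CPM. Of these, 2 IMQ-treated WT libraries lay within the untreated range, and the difference of 1.32 ± 0.40 did not pass (adjusted p = 0.0641).

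Hist1h2ae, the H2A gene that shares a promoter region with Hist1h2bg, stood at 0.347, 0.475, 0.370, 0.487 and 0.496 CPM in untreated Bmal1Mye-/- mice and at 2.35, 1.36, 1.31, 0.909 and 1.58 CPM after IMQ. Its log2 fold change was 1.78 ± 0.41 (adjusted p = 0.00894). The IMQ-treated WT libraries stood at 0.728, 0.427, 1.63, 0.476 and 0.279 CPM and overlapped the untreated WT ones, which ran from 0.212 to 0.595 CPM. The models of all 18 H2A members, Hist1h2ae, Hist1h2ai, Hist1h2an, Hist1h2ak, Hist1h2ac and Hist3h2a included, overlap an exon of another gene on the other strand. As the strand setting of the counting is not given in the sources used here, reads of the H2A genes and of these partners cannot be told apart.

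The 10 largest rises in Bmal1Mye-/- belonged to Hist1h2ai (3.20), Hist1h2bl (2.73), Hist1h2an (2.55), Hist1h3b (2.30), Hist1h2bg (2.21), Hist1h2ak (2.20), Hist1h2bp (2.17), Hist1h2ab (2.04), Hist1h3f (2.02) and Hist1h3g (1.93), as log2 fold changes. They encode H2A, H2B and H3. Of these genes, Hist1h2bl, Hist1h3b, Hist1h2bp, Hist1h2ab and Hist1h3g would not pass the filter with the untreated libraries alone. Their direction was largely set by the filter, and nothing is read from their rank. Apart from Hist1h2bg the 10 genes had few reads, from 144 (Hist1h3b) to 597 (Hist1h2an) over all 20 libraries. Hist1h2ai stood at 0.0834, 0.173, 0.236, 0.0187 and 0.0584 CPM without IMQ and at 1.93, 0.874, 0.941, 0.376 and 0.987 CPM with it, so that its groups did not overlap. Only 9.88% of the stretches of 50 bases (the read length) in the Hist1h2ai model are found in no other transcript, and the share is 14.2% for Hist1h2an and 17.2% for Hist1h2bl. A read in the other stretches can also match a near-identical histone gene. Reads without a unique alignment, 4.367% to 6.5% of a file, were tallied apart from genes. Levels of such genes may thus be understated, and their values are uncertain to that extent. Over the 52 tested members the median share was 56%, and it was 91.5% for Hist1h1c, 69.4% for Hist1h2bc, 93.7% for Hist1h2be and 50.3% for Hist1h2bg.

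The other 8 members that rose in Bmal1Mye-/- were Hist1h1b, Hist1h2ag, Hist1h4f, Hist2h2bb, Hist1h2ae, Hist1h1d, Hist1h3d and Hist1h4k, with log2 fold changes from 1.56 to 1.91. Hist1h1d, which encodes the linker histone H1.3, had the most reads of them, in a long model, at 0.247 CPM per kilobase of exon against 1.32 for Hist1h1b. Hist1h1d stood at 0.639, 0.507, 2.19, 0.749 and 0.773 CPM without IMQ and at 5.03, 2.05, 3.21, 0.987 and 3.83 CPM with it. The highest untreated library lay above 2 of the IMQ-treated ones, and the log2 fold change was 1.67 ± 0.59 (adjusted p = 0.0457). Among these 8 members, only Hist1h2ag would not pass the filter with the untreated libraries alone.

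By histone type, those that passed in IMQ-treated Bmal1Mye-/- were 2 higher and 1 lower of 5 tested H1 genes, 6 higher and 0 lower of 12 H2A genes, 4 higher and 2 lower of 14 H2B genes, 4 higher and 0 lower of 9 H3 genes, and 2 higher and 0 lower of 12 H4 genes. The median log2 fold change was 1.67 for H1, 1.84 for H2A, 1.58 for H2B, 1.83 for H3 and 1.04 for H4. Over all 52 it was 1.57, beside 0.02 for all tested genes, and 48 of the 52 values were above 0, where 51.8% of all genes were. In 12 members every IMQ-treated library lay above every untreated one and in 3 every one lay below, where 10.8% and 9.31% of all genes did so. By level, of the 11 tested members with a mean of 1 CPM or more, 2 rose and 3 fell, and of the 19 from 0.3 to under 1 CPM, 9 rose and 0 fell. Of the 22 under 0.3 CPM, 7 rose and 0 fell, but 20 of these 22 would not pass the filter with the untreated libraries alone, so their direction was largely set by the filter and nothing is read from it.

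The count of calls depended on single libraries. It was 4 to 28 higher and 3 lower with 1 library left out. It fell to 4 higher without untreated Bmal1Mye-/- replicate 4, 6 without IMQ-treated Bmal1Mye-/- replicate 1 and 7 without untreated replicate 1. It was 8 without untreated replicate 5 or IMQ-treated replicate 5 and 9 without untreated replicate 2. In that order, 11.4%, 15.4%, 14.6%, 16.9%, 12.4% and 15.3% of all genes were called in either direction, against 23.5% with all libraries. The 3 genes that fell were called in each of the 20 fits with 1 library left out, as were Hist1h2bg, Hist1h2ae and Hist1h2an among those that rose.

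In WT mice, IMQ left 1 member lower (Hist1h2bc, above) and 0 higher of 52, where 1.6% of all genes fell, 2.34% rose and 3.95% did either. At an unadjusted p under 0.05, 10 of 52 members passed, 6 higher and 4 lower, against 22.3% of all genes in either direction, 12.3% higher and 9.98% lower. The groups did not overlap for 2 members that were lower with IMQ (Hist1h1c and Hist1h2be), where 3.31% of all genes showed this, and for 1 that was higher, where 3.11% did. The median of the members was 0.57, beside 0.03 for all tested genes, and 40 of 52 values were above 0, where 53.2% of all genes were. That member was Hist3h2a, an H2A gene on chromosome 11, which was higher in all 5 IMQ-treated WT libraries (13.2, 6.82, 10.2, 6.25 and 6.71 CPM) than in any untreated one (4.49, 4.77, 5.85, 5.57 and 5.56 CPM). Its difference of 0.72 ± 0.27 did not pass (adjusted p = 0.115), and part of its model overlaps Trim17 on the same strand. The call of Hist1h2bc in WT was lost in 8 of the 20 fits with 1 library left out, namely without IMQ-treated WT replicate 1, 2, 3 or 4 or without untreated WT replicate 2, 3, 4 or 5. A count of 3 members (1 higher, 2 lower) was reached without IMQ-treated Bmal1Mye-/- replicate 1 and of 2 (both lower) without its replicate 4. The count was 5 (2 higher, 3 lower) without IMQ-treated WT replicate 5. Of all genes, 6.69%, 4.33% and 13.9% were called in these fits. The adjusted p of Hist1h2bc in these and all other settings ran from 0.000988 to 0.0925.

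**Figure D2:**
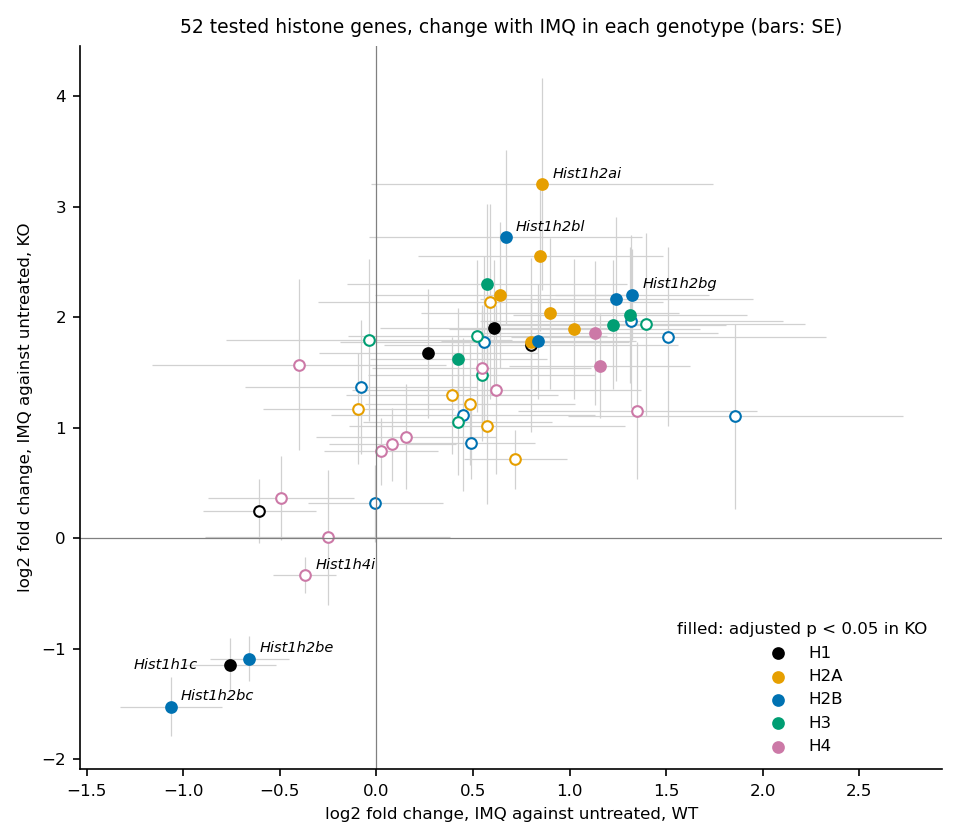
Fitted log2 fold change of IMQ against untreated in WT (horizontal axis) and in Bmal1Mye-/- (KO, vertical axis) for the 52 tested histone genes, with bars of 1 SE. Colors give the histone type, and filled points had an adjusted p under 0.05 in KO. The 3 filled points at the lower left are Hist1h1c, Hist1h2bc and Hist1h2be, and 48 of the 52 points lie above 0 on the vertical axis.

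Between genotypes under IMQ, no member passed the test. This comparison asks whether IMQ-treated Bmal1Mye-/- and WT neutrophils differ, and 0 of 52 members were called by edgeR, DESeq2 or limma. With edgeR 0.292% of all genes were called, 0.185% as higher and 0.107% as lower in Bmal1Mye-/-. At an unadjusted p under 0.05, 8 of 52 passed, 7 higher in Bmal1Mye-/- and 1 lower, against 19.9% of all genes in either direction, 11.1% higher and 8.8% lower. The median difference was 0.63, beside 0.03 for all tested genes, and 48 of 52 values were above 0, where 53.1% of all genes were. The smallest adjusted p was that of Hist1h3d, an H3 gene, at 0.182. It stood at 0.458, 0.252, 0.490, 0.247 and 0.112 CPM in IMQ-treated WT and at 1.71, 0.828, 0.746, 0.247 and 0.697 CPM in IMQ-treated Bmal1Mye-/-, a log2 difference of 1.44 ± 0.45. Hist1h2bg differed by 0.80 ± 0.39 (adjusted p = 0.253) and Hist1h1c by -0.44 ± 0.24 (adjusted p = 0.284). Leaving out IMQ-treated WT replicate 3 gave 9 members higher in Bmal1Mye-/-, where 21.9% of all genes were called in either direction. Leaving out IMQ-treated Bmal1Mye-/- replicate 4 gave 1 higher and 1 lower, where 1.96% of all genes were called.

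Whether IMQ acted differently by genotype was tested as an interaction. None of the 52 members passed, at an adjusted p or at an unadjusted p under 0.05, where 0% and 5.14% of all genes did (2.81% higher and 2.33% lower at the unadjusted p). At an adjusted p DESeq2 and limma also called 0, and at an unadjusted p they passed 1 and 4 members. The median interaction of the members was 0.86, beside 0.01 for all tested genes, and 46 of 52 values were above 0, where 51.2% of all genes were. With 1 library left out, 0 members were called at an adjusted p in each of the 20 fits, while the number at an unadjusted p under 0.05 ran from 0 to 11, the highest being 11 without IMQ-treated WT replicate 3, 10 without untreated Bmal1Mye-/- replicate 3 and 8 without IMQ-treated Bmal1Mye-/- replicate 4. The smallest p was that of Hist1h1e, which encodes the linker histone H1.4. It stood at 5.48, 8.64, 4.14, 3.22 and 3.38 CPM in untreated WT, at 3.18, 4.56, 3.53, 1.97 and 3.07 CPM in IMQ-treated WT, at 2.99, 2.98, 4.91, 4.36 and 2.83 CPM in untreated Bmal1Mye-/- and at 5.35, 5.15, 4.83, 2.32 and 3.74 CPM in IMQ-treated Bmal1Mye-/-. The interaction was 0.85 ± 0.41 (adjusted p = 0.640). For Hist1h2bg it was 0.88 ± 0.56, for Hist1h2bc -0.46 ± 0.37 and for Hist1h1c -0.38 ± 0.34, all with adjusted p between 0.640 and 0.660. A change called in Bmal1Mye-/- and not in WT is therefore not shown to differ between them.

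The makeup of the histone RNA differed with treatment. Hist1h1c alone was 60.5% to 70.5% of the summed CPM of all members in untreated WT and 56.5% to 73.0% in untreated Bmal1Mye-/-. After IMQ its share was 45.1% to 63.7% in WT and 35.8% to 53.6% in Bmal1Mye-/-. Hist1h1c, Hist1h2bc and Hist1h2be together gave 136 to 293 CPM in untreated and 67.0 to 107 CPM in IMQ-treated Bmal1Mye-/- mice, while the other 65 members together gave 33.1 to 47.8 CPM and 47.5 to 96.4 CPM. In Bmal1Mye-/- the 3 genes did not overlap between treatments, while the other 65 did, in that the lowest IMQ-treated library lay just under the highest untreated one. In WT the 3 genes gave 172 to 258 and 91.5 to 153 CPM, also without overlap. The other 65 gave 35.8 to 53.6 and 32.2 to 72.4 CPM in WT, which overlapped. This split was made after the values were seen, so the sums are given with no test.

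**Figure D3:**
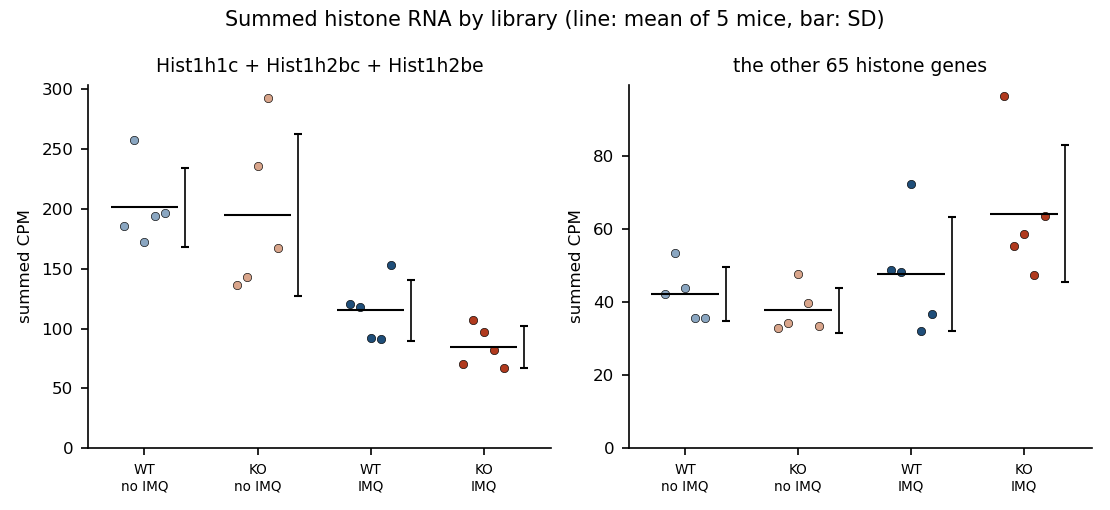
Summed CPM (vertical axes, each from 0) of Hist1h1c, Hist1h2bc and Hist1h2be (left) and of the other 65 histone genes (right) in the 5 libraries of each group, WT and Bmal1Mye-/- (KO) without and with IMQ. Points are mice, lines means and bars SD. The 3 genes sum to 67.0 to 107 CPM in IMQ-treated KO and to 136 CPM or more in untreated KO, while the other 65 are highest in IMQ-treated KO, up to 96.4 CPM.

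The H2A genes summed to 6.83 to 8.57 CPM in untreated and 13.7 to 22.5 CPM in IMQ-treated Bmal1Mye-/- mice, and to 7.10 to 9.19 and 8.17 to 18.7 CPM in WT. The H3 genes had the lowest summed CPM, at 1.00 to 3.37 CPM in untreated and 2.67 to 9.84 CPM in IMQ-treated Bmal1Mye-/- mice. These sums are not scaled by model length, number of genes or share of unique stretches, so they do not rank the types by level. The H4 genes, of which Hist1h4i gave most, stayed at 15.2 to 22.5 and 14.5 to 25.4 CPM. The H1 genes summed to 99.7 to 248 CPM in untreated and 61.0 to 96.0 CPM in IMQ-treated Bmal1Mye-/- mice, and the H2B genes to 41.2 to 54.0 and 23.4 to 35.6 CPM. In Bmal1Mye-/- the H1 and H2B sums were thus lower with IMQ and the H2A sums higher, each without overlap between treatments. The H3 and H4 sums overlapped. In WT the H1 sums were also lower without overlap, at 137 to 232 CPM in untreated and 70.6 to 121 CPM in IMQ-treated mice. The WT sums of H2A and of H2B (36.8 to 55.7 and 22.3 to 41.25 CPM) overlapped. In Bmal1Mye-/-, without Hist1h2bc and Hist1h2be, the other 17 H2B genes went the other way without overlap. They summed to 4.10 to 5.66 CPM in untreated and 6.66 to 25.0 CPM in IMQ-treated Bmal1Mye-/- mice. Without Hist1h1c, the other 5 H1 genes summed to 3.79 to 8.08 and 3.89 to 13.7 CPM, which overlapped. As above, these genes were set apart after the values were seen.

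The members lie in few places of the genome (GRCm38). On chromosome 13, 23 members were found between positions 21715763 and 22043676 and 31 between 23531050 and 23934851. The rest comprised 10 on chromosome 3 (96219865 to 96270132), 3 on chromosome 11 (58948920 to 58956830) and 1 on chromosome 6 (136801553 to 136804415). In IMQ-treated Bmal1Mye-/-, 8 of 17 tested members of the first chromosome 13 block rose and 0 fell, with a median of 1.83, and 9 of 27 rose and 3 fell in the second, with a median of 1.48. On chromosome 3, 1 of 5 rose. Both main blocks thus held genes that rose, and the 3 that fell lie in the second, at 23738808 to 23740367 (Hist1h1c, plus strand), 23684199 to 23692908 (Hist1h2bc, plus strand) and 23583670 to 23621124 (Hist1h2be, minus strand).

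H2A and H2B genes often lie head to head and share the stretch between their starts. There were 13 such pairs among the members, each of an H2A and an H2B gene, with a median of 250 bases between the starts. In 8 pairs both genes were tested, and in 7 of these both fitted values for IMQ in Bmal1Mye-/- were above 0. Taken singly, 48 of the 52 tested members (92.3%) were above 0, so nothing about pairs is read from this count. Both genes passed in 3 pairs: Hist1h2ai and Hist1h2bl (3.20 and 2.73), Hist1h2an and Hist1h2bp (2.55 and 2.17), and Hist1h2ae and Hist1h2bg (1.78 and 2.21). Of these genes, Hist1h2bl and Hist1h2bp would not pass the filter with the untreated libraries alone. The pair with values of opposite sign was Hist1h2ac with Hist1h2bc. Hist1h2bc fell (above), while Hist1h2ac stood at 0.431, 0.432, 1.01, 1.44 and 0.394 CPM without IMQ and at 3.18, 2.14, 1.31, 0.467 and 1.17 CPM with it, a difference of 1.17 ± 0.50 (adjusted p = 0.0898). The genes of this pair also differed in level, with Hist1h2bc at 21.2 CPM and Hist1h2ac at 0.405 CPM per kilobase of exon.

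**Figure D4:**
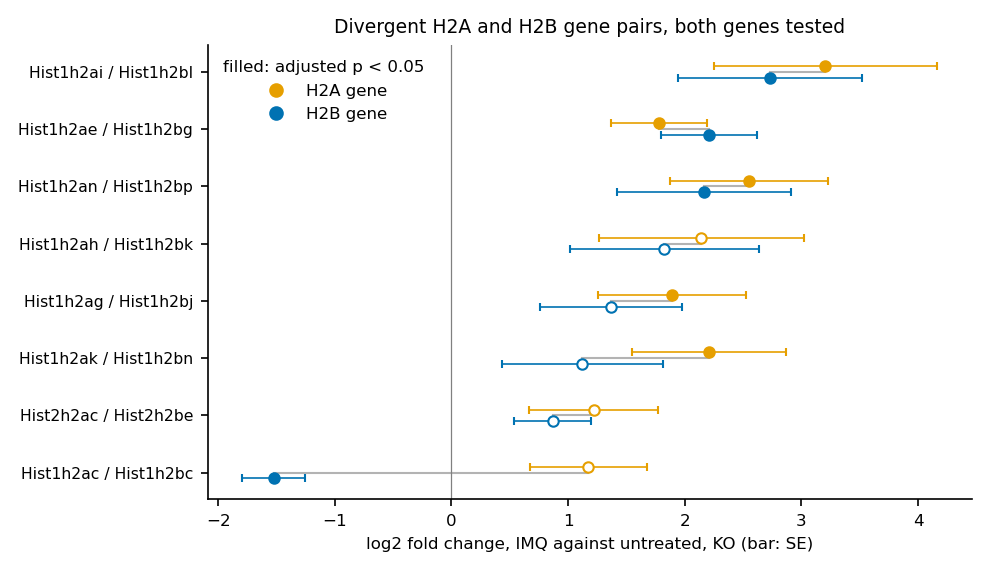
Fitted log2 fold change of IMQ against untreated in Bmal1Mye-/- (KO, horizontal axis, bars of 1 SE) for the 8 head-to-head pairs of an H2A gene (orange) and an H2B gene (blue) in which both were tested. Filled points had an adjusted p under 0.05. Hist1h2ac and Hist1h2bc, at 1.17 and -1.52, are the pair whose values have opposite sign.

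Shown are the stretches between the starts of Hist1h2ac and Hist1h2bc, of which Hist1h2bc fell and Hist1h2ac did not pass (chr13:23683960-23684198, minus strand, the direction of Hist1h2ac) and of Hist1h2ae and Hist1h2bg, which both rose (chr13:23571221-23571399, plus strand, the direction of Hist1h2bg), with the 250 bases before the start of Hist1h1c (chr13:23738557-23738806, plus strand). Sequences are from RefSeq on GRCm38.p6, 5' to 3'. Capitals mark matches on either strand to any of 4 motifs. The first is TATAAA, a core promoter element, and the next is CCAAT, which NF-Y binds. The others are ATTTGCAT, the octamer bound by POU factors, and AAACACA, an element described in H1 promoters.
Hist1h2ac and Hist1h2bc: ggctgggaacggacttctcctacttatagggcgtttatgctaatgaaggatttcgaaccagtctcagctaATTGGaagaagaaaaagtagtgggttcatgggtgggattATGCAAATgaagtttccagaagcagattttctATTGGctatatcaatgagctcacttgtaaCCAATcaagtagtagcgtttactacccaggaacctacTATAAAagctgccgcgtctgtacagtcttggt
Hist1h2ae and Hist1h2bg: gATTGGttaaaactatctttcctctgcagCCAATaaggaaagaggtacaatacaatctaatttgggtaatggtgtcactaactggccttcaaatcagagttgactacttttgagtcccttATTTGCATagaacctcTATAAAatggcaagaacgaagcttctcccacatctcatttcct
Hist1h1c: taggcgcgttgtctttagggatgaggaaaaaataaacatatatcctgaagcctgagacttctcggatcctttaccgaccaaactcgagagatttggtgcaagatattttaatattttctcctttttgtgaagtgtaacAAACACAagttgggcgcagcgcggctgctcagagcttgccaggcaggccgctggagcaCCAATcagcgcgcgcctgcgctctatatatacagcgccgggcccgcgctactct

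The stretch of Hist1h2ac and Hist1h2bc held 1 octamer, 1 TATAAA and 3 CCAAT matches, and that of Hist1h2ae and Hist1h2bg held 1 octamer, 1 TATAAA and 2 CCAAT matches. Promoter windows (250 bases before to 50 after the start) were found for 61 members, as 62 windows, and no matches of different motifs overlapped in any of them. CCAAT was in 85.5% of the member windows and 37.4% of all 32851 windows, TATAAA in 56.5% and 13.6%, the octamer in 22.6% and 1.74%, and AAACACA in 14.5% and 7.18%. The octamer was in 41.2% of H2A and 41.2% of H2B windows and in 0% of those of the other types, and AAACACA was in 83.3% of the H1 windows. CCAAT was in every H1, H2A, H2B and H3 window but in 25% of the H4 ones.

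The machinery that makes and ends histone mRNA was measured next to the genes themselves, with lists chosen for their function. In IMQ-treated against untreated Bmal1Mye-/-, 7 of 16 genes for histone 3' end formation and decay rose and 1 fell. For this and the lists that follow, the share of all tested genes in the same comparison was 14.4% higher and 9.04% lower in Bmal1Mye-/-, and 2.34% higher and 1.6% lower in WT. Eri1, the exonuclease that trims histone mRNA ends, rose by 1.41 ± 0.31 (log2, adjusted p = 0.00737), Lsm11, a subunit of the U7 snRNP, by 1.24 ± 0.28 (0.00825), and Cpsf2, a subunit of the cleavage complex, by 0.57 ± 0.13 (0.00921). Lsm10, the partner of Lsm11, fell by 0.73 ± 0.18 (adjusted p = 0.0114). Slbp stood at 54.9, 50.03, 51.2, 45.2 and 54.8 CPM without IMQ and at 85.8, 53.1, 65.3, 58.8 and 75.8 CPM with it, and its difference of 0.40 ± 0.17 did not pass (adjusted p = 0.0821). In WT 1 of the 16 rose (Ncbp1, a cap-binding protein, by 0.51 ± 0.14).

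Among 11 genes of histone gene transcription, 4 rose and 0 fell in IMQ-treated Bmal1Mye-/-: Cdk2 (0.80 ± 0.15), Ccna2 (1.91 ± 0.41), Pou2f1 (0.53 ± 0.13), which encodes the octamer-binding factor Oct-1, and Ccne2 (1.05 ± 0.31). Npat, the coactivator that cyclin E and CDK2 phosphorylate, differed by 0.74 ± 0.31 and did not pass (adjusted p = 0.0853). In WT 0 of the 11 rose and 1 fell (Pou2af1, a B-cell coactivator of octamer-binding factors, by 2.099 ± 0.58).

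Replacement histones can be made outside S phase, mostly from genes whose mRNAs carry poly(A) tails, while H2afx is known to give both a stem-loop and a polyadenylated form. Of 11 genes listed as replacement histones, 6 rose and 0 fell in IMQ-treated Bmal1Mye-/-, and 0 passed in WT. H2afx, which encodes H2A.X, stood at 60.8, 63.7, 82.4, 44.5 and 60.8 CPM without IMQ and at 278, 139, 203, 142 and 266 CPM with it, without overlap (1.72 ± 0.34, adjusted p = 0.00586). H2afz (H2A.Z) rose by 0.71 ± 0.16, H2afy (macroH2A) by 0.60 ± 0.14, Cenpa (the centromeric H3) by 1.21 ± 0.28 and H1f0 (the linker histone H1.0) by 2.57 ± 0.60. The H3.3 genes did not pass, at -0.12 ± 0.10 for H3f3a and -0.28 ± 0.21 for H3f3b. Of 18 histone chaperones, 12 rose and 0 fell, among them Asf1b (1.71 ± 0.42), Nap1l1 (1.12 ± 0.28), Chaf1a (1.34 ± 0.37) and Mms22l (1.34 ± 0.38). In WT 0 of the 18 passed. For none of these lists was a gene called between genotypes, with or without IMQ, or in the interaction.

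Of 20 DNA replication genes, 8 rose and 0 fell in IMQ-treated Bmal1Mye-/-, among them Cdc45 (0.86 ± 0.22), Rrm2 (1.53 ± 0.43), Pola1 (1.22 ± 0.36) and Rrm1 (1.42 ± 0.44), and 0 passed in WT. Their summed level was 381 to 690 CPM in untreated and 734 to 1848 CPM in IMQ-treated Bmal1Mye-/- mice, with no overlap. In WT it was 397 to 697 and 303 to 1767 CPM. IMQ-treated WT replicate 3 had the highest sum in WT and IMQ-treated Bmal1Mye-/- replicate 1 the highest of all libraries.

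To relate members to this list within groups, group means were subtracted and each member was correlated with the mean log2 CPM of the list over the 20 libraries, with two-sided p-values from 100000 permutations within groups, adjusted over 14010 genes. A positive correlation passed for 29 of 52 members, where 25.7% of all genes passed, and a negative one for 1 member, where 20.8% did. The median of Pearson's r was 0.62 for the members and 0.08 for all genes. The strongest were Hist1h2bg (r = 0.79, Spearman's rho = 0.62, permutation p = 0.0015, adjusted p = 0.0052), Hist1h4h (0.77 and 0.66, permutation p = 0.0019, adjusted p = 0.00629) and Hist1h4f (0.77 and 0.64, permutation p = 0.00049, adjusted p = 0.00214). Without the 2 libraries named below, r was 0.55, 0.54 and 0.71.

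Hist1h2be was the member called negative (r = -0.68, rho = -0.81, permutation p = 0.00502, adjusted p = 0.0139). Hist1h2bc had r = -0.51 and rho = -0.68 with permutation p of 0.126 and 0.00505 (adjusted p of 0.204 and 0.0156), and Hist1h1c had r = -0.27 and rho = -0.28 with permutation p of 0.241 and 0.242 (adjusted p of 0.346 and 0.358). The 3 members that fell with IMQ in Bmal1Mye-/- were thus 3 of the 4 members with r below 0, and Hist1h4n, at r = -0.08, was the other. Without the 2 libraries farthest from the median of the list, IMQ-treated WT replicate 3 and IMQ-treated Bmal1Mye-/- replicate 1, 8 members passed positively and 1 negatively, where 15.9% and 12.3% of all genes did, and the median r was 0.43, so that most calls rest on these libraries. Within the 10 untreated libraries 0 members passed (median r 0.34), where 2.66% of all genes passed positively and 0.65% negatively. At an unadjusted permutation p under 0.05, 7 members passed there, against 26.1% of all genes. Within the 10 IMQ-treated libraries 18 members passed positively and 1 negatively (median r 0.73), where 21.7% and 17.5% of all genes did.

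**Figure D5:**
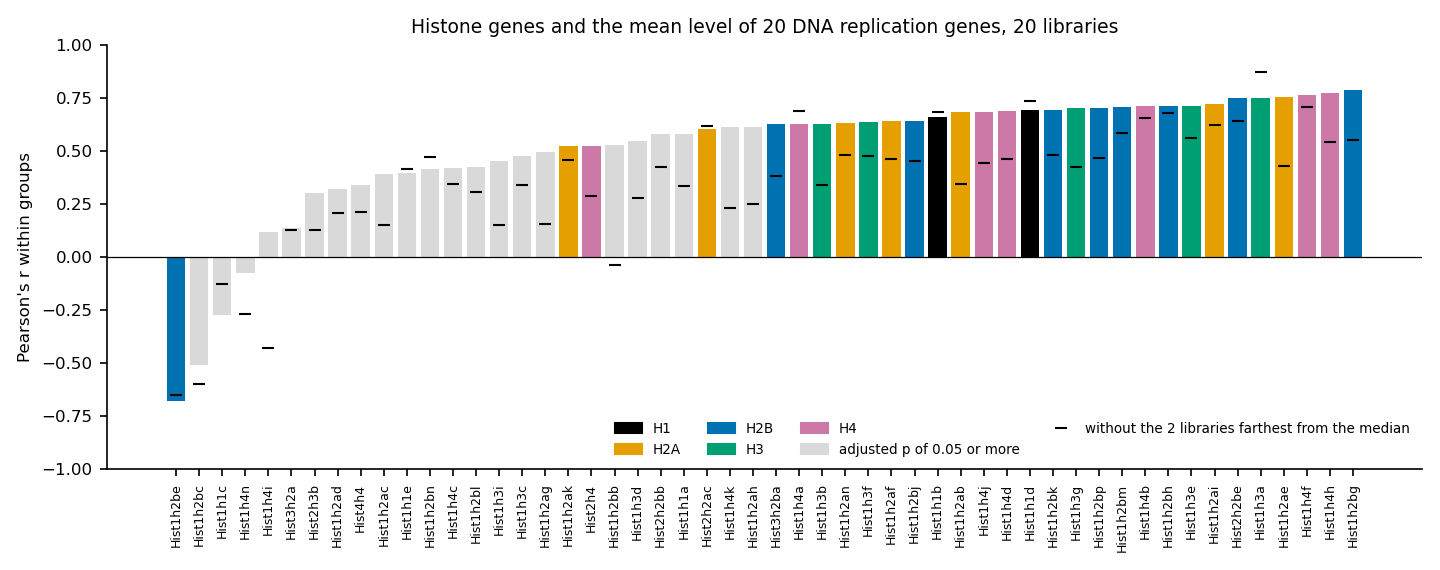
Pearson's r (vertical axis) between each of the 52 tested histone genes and the mean log2 CPM of 20 DNA replication genes over 20 libraries, after subtracting group means. Bars in color, by histone type, had an adjusted p under 0.05, and short lines give r without the 2 libraries farthest from the median of the list. Hist1h2be, Hist1h2bc and Hist1h1c are at the left, at -0.68, -0.51 and -0.27, and Hist1h2bg is at the right, at 0.79.

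Markers of other cells moved in the same comparisons, and their part in the histone results was not tested. In IMQ-treated against untreated Bmal1Mye-/-, 5 of 6 tested monocyte genes rose (14.4% of all genes did), with sums of 127 to 1687 CPM (median 274) against 275 to 381 CPM (median 319), and 2 of 6 B-lineage and 1 of 4 T and NK genes fell. None of 7 progenitor genes (Kit, Cd34, Flt3, Mpo, Elane, Prtn3 and Ctsg) passed, with sums of 227 to 1609 CPM against 372 to 941 CPM. Erythroid sums were 20.8 to 515 CPM against 30.5 to 246 CPM, with 0 of 6 called and with Hba-a1, Hba-a2, Hbb-bs and Hbb-bt listed at 0 in every library. Of 9 neutrophil genes 1 fell. Of 5 eosinophil and basophil genes 1 fell, while the other 4 had values above 0 that did not pass (median of the 5, 1.25), and their sums were 34.8 to 187 CPM against 40.03 to 121 CPM. Between genotypes under IMQ, 2 of these 5 genes were higher in Bmal1Mye-/- (median 2.39), with sums of 17.8 to 34.6 CPM in IMQ-treated WT. IMQ-treated Bmal1Mye-/- replicate 1, which had the highest Hist1h2bg, Hist1h2ae and Hist1h2ai of all libraries, also had the highest monocyte and progenitor sums and the lowest neutrophil sum. In WT, 1 of 6 erythroid genes rose and 1 of 5 eosinophil and basophil genes fell with IMQ.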

How the data were processed

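Poly(A) RNA of marrow neutrophils was sequenced from 20 mice, 5 per group, on either of 2 Illumina instruments, with no label of which library ran on which. The authors' methods give alignment of Read 1 (50 bases) to mm10 with TopHat, whereas the submitters' processing notes name bcl2fastq, STAR 2.7.8a and HTSeq 2.0.1 without role or order. The annotation and strand setting are not given in the sources used here. The deposited values are raw counts per gene, with no normalization. A further deposited table repeats the same counts and was not used.

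Counts were analysed with edgeR 4.0.16 in R 4.3.3. Genes were filtered with filterByExpr (14030 of 24421 kept), scaled by TMM and fitted by the quasi-likelihood method in 1 model of the 4 groups, with Benjamini-Hochberg adjustment over all tested genes and a threshold of 0.05. Standard errors were the log2 fold change over the square root of the F statistic. Log2 CPM used a prior count of 2. The fit and the correlation test were checked on simulated data. Of the reads in a file, 51.85% to 57.79% lay on no feature and 4.367% to 6.5% were not uniquely aligned. Spread between mice exceeds counting error for the abundant members, and for members with few reads counting error adds to it. Gene models came from GENCODE M21 and promoters from RefSeq.

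Named genes were, per comparison, members past the threshold (the 10 of largest change per direction where more passed), or that of smallest adjusted p; the 12 members of highest mean CPM and the highest of each type; up to 4 genes per functional list and comparison; Slbp, Npat, H2afz, H2afx, H3f3a, H3f3b and H1f0 in any case; and Arntl and Lyz2. Hist1h2ae, Hist1h4n, Hist1h4f and Hist1h1b and others outside this rule were named after their values were seen. The members and all lists were chosen with earlier results of these data known. Correlation p-values had been planned with adjustment over the members and were adjusted over all genes instead.

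Replicate numbers were checked for pairing by the correlation of residuals of libraries of the same number: 0.128 to 0.426 for the treatments in Bmal1Mye-/- (all 5 above 0.1), 0.0728 to 0.384 in WT, -0.441 to 0.206 for the untreated and -0.497 to 0.343 for the IMQ-treated genotypes. Libraries of different numbers were not compared, so the check cannot show that the numbers pair mice. Alternatives were DESeq2 1.42.0, RLE factors, limma 3.58.1 on log2(CPM + 0.1), no filter, at least 10 counts in every library, only the groups compared, a replicate block, each library left out, and 2 IMQ-treated libraries near the untreated ones left out together.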

Additional observations from a re-analysis of the deposited data

Results flagged for a closer look

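Among 92 sets of 5 libraries (named members with their 4 groups), 7 had a library whose gap to its nearest neighbor took up more of the range than Dixon's test allows at 95%, where chance gives about 4.6. IMQ-treated Bmal1Mye-/- replicate 1 was far above the others for Hist1h2bp (0.662 CPM, next 0.184) and Hist1h2ab (1.28 CPM, next 0.506). IMQ-treated WT replicate 3 was far above the others for Hist1h2ab (0.927 CPM, next 0.214) and Hist2h2be (3.83 CPM, next 2.02). These are also the 2 libraries with the highest sums of the DNA replication list. The remaining 3 were in untreated mice: Hist1h3g in WT replicate 3 (0.159 CPM, next 0.0741), Hist1h1c in WT replicate 2 (219 CPM, next 154.5) and Hist1h1d in Bmal1Mye-/- replicate 3 (2.19 CPM, next 0.773).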

How the results depend on the processing

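For IMQ against untreated in Bmal1Mye-/-, calls of members were 21 (18 higher, 3 lower) and stayed within 1.5 times that under all but 1 of the other settings: with at least 10 counts in every library, a filter that keeps 18 members, 8 passed (5 higher, 3 lower) and the median went from 1.57 to 0.80. The replicate block gave 24 (21 higher, 3 lower) and a fit without a filter 16 (13 higher, 3 lower). In these settings 28.2%, 22.2% and 12.3% of all genes were called, against 23.5% in the main fit. Members that pass the filter in untreated libraries, a choice made after seeing the data, gave 15 of 31 (12 higher, 3 lower) and a median of 1.22. Leaving out 1 library gave 7 to 31 calls and a median of 1.12 to 1.76, and the share of all genes called ran from 11.4% to 31.5%. For IMQ in WT, 1 call became 4 by DESeq2 (1 higher, 3 lower), 3 by limma (3 lower) and 0 with only the groups compared. It became 5 without IMQ-treated WT replicate 5 and Bmal1Mye-/- replicate 2 together (2 higher, 3 lower). It was 1 with the replicate block and 0 to 5 with 1 library left out. Of all genes, 10.5%, 4.3%, 1.44%, 15.1%, 1.35% and 0.336% to 13.9% were called in these settings, in this order. Between genotypes under IMQ, leaving out 1 library gave 0 to 9 calls, and the other settings gave 0. The 9 calls were without IMQ-treated WT replicate 3, where 21.9% of all genes were called. Without IMQ and in the interaction every setting gave 0 at an adjusted p. The block by replicate number, which no label gives as a pair, kept all 21 calls in Bmal1Mye-/- and changed no other count. The median over all tested genes was over 0.1 with limma (0.22 for genotype under IMQ and 0.19 for the interaction) and without a filter (0.12 for genotype under IMQ). The positive calls of the correlation with the DNA replication list were 29, and 8 without the 2 farthest libraries. They were 13 without the 2 farthest after subtracting group means (a choice made after seeing the data), 0 within untreated and 18 within IMQ-treated libraries. The shares of all genes that passed positively were 25.7%, 15.9%, 17.5%, 2.66% and 21.7%. No called change of a named member reversed its sign in any setting. The cause of these differences was not tested beyond the number of libraries and members each setting keeps. Depth was low for many of the members that rose, and for the 9 of the 10 largest rises other than Hist1h2bg it was 144 to 597 reads over 20 libraries. Hist1h1d (2294 reads) kept its call in 12 and Hist1h1b (1203 reads) in 13 of the 20 fits with 1 library left out, and Hist1h2an (597 reads) in 20 and Hist1h2bl (184 reads) in 19.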
